A study of Caenorhabditis elegans with 2 samples.

Results

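Coding exon candidates are the regions of chromatin enrichment whose summit lies in protein-coding sequence, away from gene starts and from small RNA genes. They were 6242 of the 28574 candidate regions (21.8%) called on the pooled replicates of a chromatin immunoprecipitation with sequencing (ChIP-seq) study of NHR-12 in Caenorhabditis elegans. A candidate was kept when its summit fell in coding sequence of a protein-coding gene, more than 500 bp from every start of a protein-coding gene and more than 250 bp from any tRNA, snoRNA or snRNA gene. Of the 28574 summits, 8109 (28.4%) fell in coding sequence. A gene start within 500 bp removed 1816 of those, and a small RNA gene alone removed 51. The label held for the regions as a set by its own rule, which looks at the summit base alone. In 3783 of the 6242, all bases up to 50 bp on each side of the summit were coding. The others had at least 1 non-coding base in that span.

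The study had 1 group, whole mixed-stage embryos of both sexes from strain OP318, with 2 biological replicates. The strain has the genotype unc-119(ed3) III; wgIs318, by its name an integrated transgene, and produces NHR-12 with an enhanced green fluorescent protein (eGFP) tag. The labels describe the assay as directed at the tagged protein but give the antibody as nhr-12, so whether the antibody recognised the tag or the receptor is not clear from them. All samples therefore share the unc-119 mutation and the transgene, there is no untagged or untreated group in the lists, and the promoter and copy number of the transgene are not stated in the labels. Fragments of 150 to 350 bp are labelled for both libraries, and the labelled control was not analysed here. The signal of a region was computed by the authors in units not given in the sources used here; it ranks regions within a list, and where values of different lists stand side by side, their sizes are not compared. Read counts are not in the lists, so the depth behind a signal is unknown.

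Nuclear hormone receptors are transcription factors with a zinc-finger DNA-binding domain and a ligand-binding domain, and the family is greatly expanded in nematodes. Such factors are usually mapped to promoters and enhancers, which in the compact worm genome lie mostly in intergenic sequence and introns close to gene starts. Coding exons are richer in GC than introns and are not usually counted among regulatory sequence. A candidate list of this type is deliberately permissive. It is the input to the irreproducible discovery rate (IDR) comparison of replicates, and the authors' thresholded list is the stricter outcome.

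The sequences at the summits of 5 coding exon candidates on ce11 are shown as examples from the 15 largest signals. Those of ztf-6 and eef-2, which also rank high, are not printed. All are printed for the plus strand, from the RefSeq copy of the assembly. At pks-1, whose summit is the middle base of chrX:5429424-5429624, capitals mark the 157 coding bases and lower case marks the intron between exon 21 and exon 22. The gene lies on the same strand.

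pks-1: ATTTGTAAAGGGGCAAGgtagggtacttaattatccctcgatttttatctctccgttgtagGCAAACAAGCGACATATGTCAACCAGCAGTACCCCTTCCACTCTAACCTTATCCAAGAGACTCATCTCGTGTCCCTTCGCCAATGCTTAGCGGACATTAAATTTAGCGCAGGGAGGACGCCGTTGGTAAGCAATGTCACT

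In the next 4 windows, each reaching 50 bp to either side of the summit and entirely coding, capitals mark the 5 bases centred on the summit. They are chrIII:835924-836024 in dos-3 (the gene lies on the minus strand), chrIV:5978911-5979011 in unc-44, chrII:8526347-8526447 in mrps-18B and chrIII:5108227-5108327 in dpy-17, these last on the plus strand. The dpy-17 window shows the recurring gga and cca triplets of a collagen coding sequence.

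dos-3: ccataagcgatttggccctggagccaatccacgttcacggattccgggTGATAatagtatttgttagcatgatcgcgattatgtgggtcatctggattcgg

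unc-44: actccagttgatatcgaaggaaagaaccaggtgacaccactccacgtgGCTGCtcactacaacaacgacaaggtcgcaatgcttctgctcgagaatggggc

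mrps-18B: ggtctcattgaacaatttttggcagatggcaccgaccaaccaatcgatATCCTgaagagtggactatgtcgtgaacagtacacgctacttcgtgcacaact

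dpy-17: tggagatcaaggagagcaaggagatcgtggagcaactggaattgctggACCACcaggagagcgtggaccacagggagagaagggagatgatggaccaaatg

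Of the 6242 coding exon candidates, 2 overlapped a thresholded peak (0.032%), beside 292 of all 28574 candidates (1.02%). They lay in pks-1 and ztf-6. At a −log10 q value of at least 2, 4 coding exon candidates remained (0.0641%), beside 261 of all candidates (0.913%). The 4 were those in pks-1, ztf-6, dos-3 and eef-2, and each had a region in both replicates. The values are descriptions: with 1 group there is no contrast between conditions, and regions of the same 2 libraries are not replicates, so no test was made on them.

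The candidate in pks-1 had a signal of 76.0 and ranked 14 of the 28574. pks-1 encodes a giant polyketide synthase that, with the peptide synthetase NRPS-1, makes the nemamides, hybrid polyketide-peptides of worms. The region had a signal of 31.8 in replicate 1, where it ranked 51, and of 38.2 in replicate 2, where it ranked 8. It was high in both lists. On chromosome X at 5429346 to 5429701, its summit lay 39 bp from the edge of exon 22 of 30, an exon of 202 bp, and 15714 bp downstream of the annotated start of pks-1. The nearest start of any protein-coding gene was that of C41A3.2, 15174 bp away. None of the 31-base words of the region occurred elsewhere in the genome. The other 10 coding exon candidates of pks-1 had signals between 8.0 and 15.3, and 2 of those 10 had a region in both replicates.

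The second strongest candidate lay in exon 3 of 6 of ztf-6, a zinc-finger gene (chromosome I, 11208024 to 11208379). Its pooled signal of 32.7 ranked 207, with 25.3 in replicate 1 and 14.2 in replicate 2 (rank 406). The summit was 2 bp inside the exon, so this region and that in pks-1 both reached into an intron within 50 bp of the summit. No coding exon candidate whose sequence was coding for 50 bp on both sides of the summit overlapped a thresholded peak.

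The next candidates, in dos-3 and eef-2, ranked 251 and 259 in the pooled list and overlapped none of the 249 thresholded peaks. In dos-3, a member of the DOS-motif family of Notch co-ligands, the last of 11 exons held a signal of 30.5 (chromosome III, 835796 to 836151), with 15.8 in replicate 1 and 14.4 in replicate 2. In eef-2, which encodes translation elongation factor 2, exon 5 of 6 held a signal of 30.1, with 15.5 and 14.1 in replicates 1 and 2. Both regions ranked 585 or better in each replicate list. In T09B4.5 the signal was 28.5, with 19 in replicate 1 (rank 244) and no region in replicate 2. This candidate was thus strong in the pooled list on 1 replicate.

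In unc-44, which encodes the neuronal ankyrin of worms, exon 4 of 19 held a signal of 27.5 (chromosome IV, 5978783 to 5979138), with 13.3 in replicate 1 and 14.6 in replicate 2. A further candidate of unc-44 in exon 11 had a signal of 24.7. The mitochondrial ribosomal protein gene mrps-18B held 26.1 in the last of 5 exons (chromosome II, 8526219 to 8526574), with 10.3 in replicate 1 (rank 3878) and 16.6 in replicate 2 (rank 220). The cuticle collagen gene dpy-17 held 25.7 in its last exon (chromosome III, 5108099 to 5108454), with 11.1 in replicate 1 and 13.9 in replicate 2. The replicate ranks of mrps-18B and dpy-17 differed several-fold, better in replicate 2.

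The other 7 of the 15 largest signals lay between 25.5 and 27.3. They were in Y52B11A.8, in micu-1, which encodes a regulator of mitochondrial calcium uptake, in the linker histone-like gene hil-5, in magu-2, in the homeodomain-interacting kinase gene hpk-1, in K09C4.7 and in Y62F5A.9. In micu-1 the pooled signal of 26.7 stood beside 8.79 in replicate 1 (rank 7133) and 8.08 in replicate 2 (rank 5282), and by these ranks neither replicate list placed it high. The region in magu-2 had 19.1 in replicate 2 (rank 136) and none in replicate 1. Of the 15, 13 (86.7%) had a region in both replicates, beside 98% of all candidates with a signal of at least 25. Of the same 15, 5 ranked within the best 1000 of both, and 1, in pks-1, within the best 249 of both. No share of all candidates is given for these ranks. Pooled candidates are built from both replicates, so a region in a replicate is not independent evidence for the pooled one.

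Over all 6242 coding exon candidates the median signal was 10.45 (quartiles 8.94 and 12.75, lowest 7.77, highest 76.0). Over all 28574 candidates the median was 10.44. The bulk of the coding exon candidates was therefore as high as the rest. The upper tail was not: the 99th percentile was 22.1 in coding exons, 23.9 in introns, 28.4 over all candidates and 36.4 within 500 bp of a coding gene start. A signal of at least 25 was reached by 17 coding exon candidates (0.272%), by 1.55% of all candidates and by 2.71% of those within 500 bp of a coding gene start. At 30 or more, 4 coding exon candidates (0.0641%) stood beside 1.73% of those near starts.

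**Figure D1:**
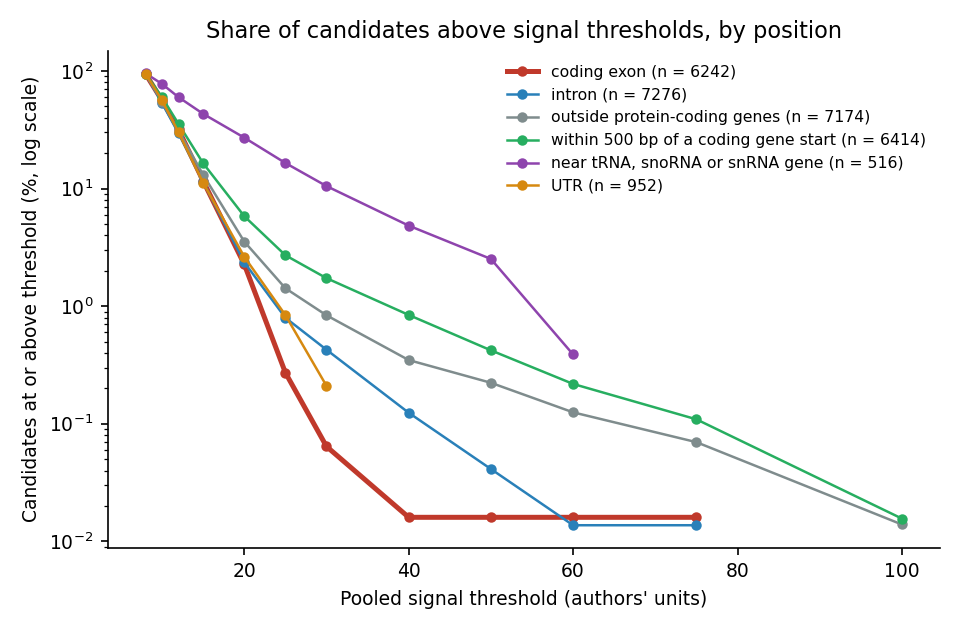
Share of candidates (percent, log scale) at or above each pooled signal threshold (x axis, authors' units), with 1 line for each annotated position of the summit. The line near tRNA, snoRNA or snRNA genes lies above the others from 10 (77.5%, beside 56.2% in coding exons) to 60. The coding exon line falls to 0.272% at 25 and 0.0641% at 30, leaving 1 region, in pks-1, from 40 to 75.

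Ranks showed the same picture. Coding exon candidates were 21.8% of the list but 2 of the 249 with the largest signal (0.803%), 25 of the best 500 (5%) and 117 of the best 1000 (11.7%). They reached 17.4% of the best 2500 and 21.8% of the best 10000. Introns held 7276 candidates with a median of 10.23, of which 42 overlapped a thresholded peak. The 516 candidates near tRNA, snoRNA or snRNA genes had a median of 13.68, and 63 of them overlapped a peak. Within 1000 bp of the summit of a thresholded peak lay 19 coding exon candidates (0.304%), beside 1.45% of all candidates. Both shares include the candidates that overlap a peak, 2 in coding exons and 292 of all, so they largely repeat that overlap. Within 5000 bp the shares were 3.2% and 3.81%.

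A replicate 1 region overlapped 3931 coding exon candidates (63%), beside 64.9% of all candidates. A replicate 2 region overlapped 3676 (58.9%), equal to the 58.9% of all candidates. Regions in both replicates were present at 1931 (30.9%, beside 32.9%) and in neither at 566 (9.07%, beside 9.14%). All of these shares were near the background. The median pooled signal was 12.66 with both replicates, 10.06 with replicate 1 alone, 9.86 with replicate 2 alone and 8.81 with neither.

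Support rose with signal in coding exons as it did elsewhere. Below a signal of 9, 13% of the coding exon candidates had a region in both replicates, beside 13.7% of all candidates. Between 12 and 15 the shares were 44.8% and 46.4%, and between 20 and 25 they were 87.2% (109 of 125) and 88.5%. At 25 or more they were 82.4% (14 of 17) and 98.0%. The 3 coding exon candidates short of both replicates in that last bin came from 17, so the share there rests on few regions.

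**Figure D2:**
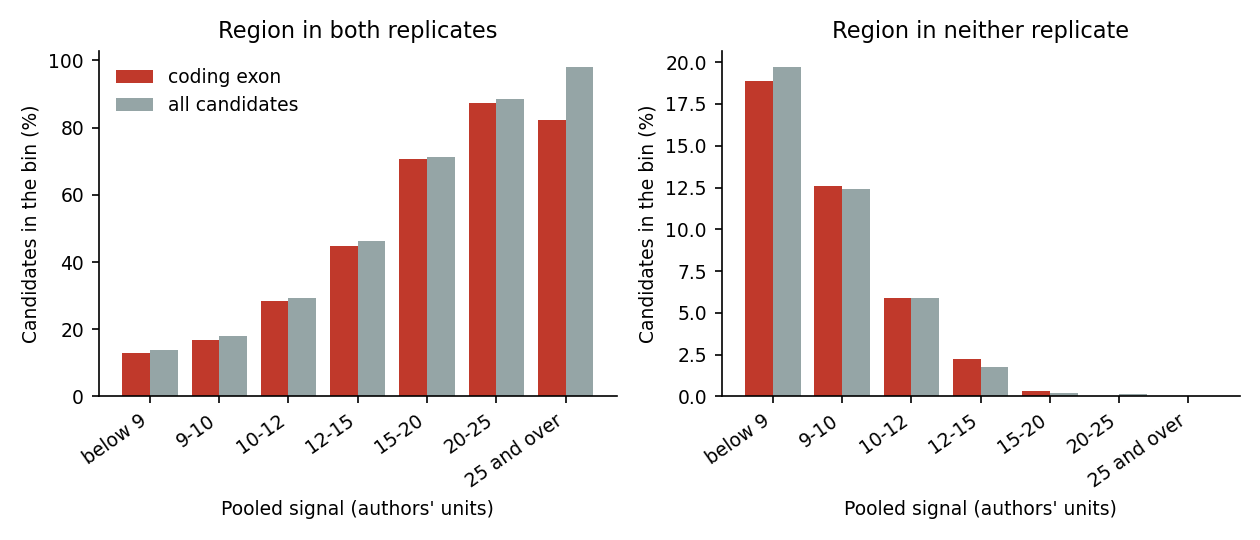
Percent of candidates with a region in both replicates (left) and in neither (right), by bin of pooled signal in the authors' units, for coding exon candidates and all candidates. The bars lie close together in every bin up to 25, from 13% and 13.7% below 9 to 87.2% and 88.5% between 20 and 25; in the last bin, which has 17 coding exon candidates, they are 82.4% and 98.0%.

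Among the 1931 coding exon candidates with a region in both replicates, the order of signal in replicate 1 said almost nothing about the order in replicate 2. Spearman's rho was 0.0144, and Pearson's r of the log2 signals was 0.04. Over the 9413 such candidates of all kinds rho was 0.164, in introns 0.121 (n = 2298) and within 500 bp of a coding gene start 0.215 (n = 2338). These correlations are across regions of 2 libraries and describe those libraries. Candidates share neighbouring sequence and both lists stop at a lowest signal, which narrows the range. The 1931 were also chosen from a pooled list that is made from both replicates and has its own lowest signal. Candidates that met the same replicate region enter more than once. What these limits do to rho was not tested.

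**Figure D3:**
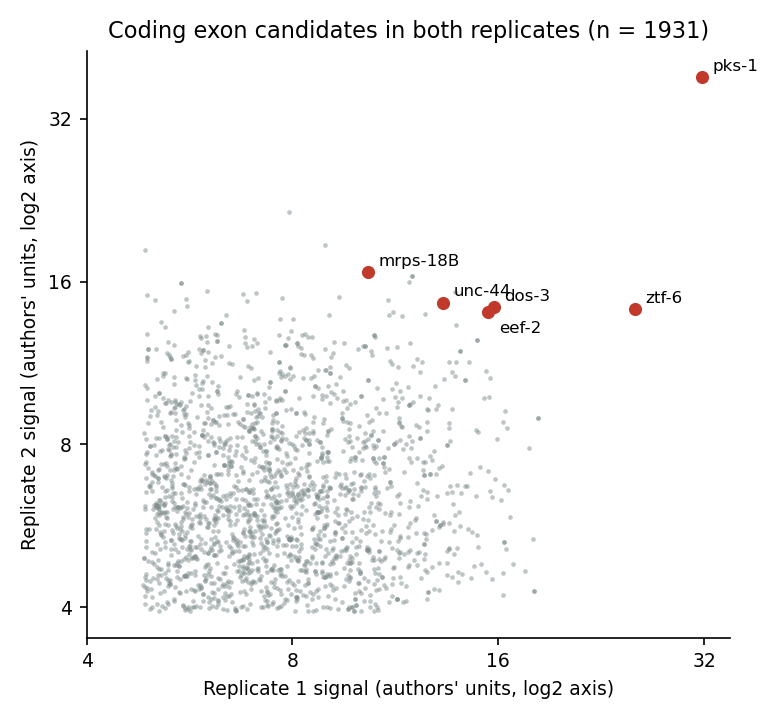
Signal in replicate 1 (x axis) and replicate 2 (y axis), both in the authors' units on log2 axes, for the 1931 coding exon candidates with a region in both; 6 genes are labelled at their strongest candidate. The cloud has no slope (Spearman's rho 0.0144), and pks-1 stands alone at 31.8 and 38.2.

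The replicate lists were also searched by the same rule. Replicate 1 held 6491 coding exon regions of 30000 (21.6%) and replicate 2 held 6934 (23.1%). Of these, 2068 (31.9%) and 2091 (30.2%) overlapped a region of the other replicate, beside 33.6% and 33.7% of all regions. A −log10 q value of at least 2 was held by 3 coding exon regions of replicate 1 (0.0462%, beside 0.623% of its list) and by 49 of replicate 2 (0.707%, beside 1.46%).

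The 249 best regions of replicate 1 held 4 in coding exons, in pks-1, ztf-6, F26F12.3 and T09B4.5, and 2 of the 4 had no counterpart in replicate 2. The 249 best of replicate 2 held 18, of which 13 had no counterpart in replicate 1 and 2 ranked within its best 1000. Over all 249, 38 (15.3%) of the best regions of replicate 2 had no counterpart in replicate 1, and 22 (8.84%) of those of replicate 1 had none in replicate 2. By overlap, 4 pooled coding exon candidates (0.0641%, beside 1.04% of all candidates) met one of the 249 best of replicate 1, and 20 (0.320%, beside 1.04%) one of the 249 best of replicate 2.

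The 18 best coding exon regions of replicate 2 included pks-1 (38.2), magu-2 (19.1), pop-1, which encodes the TCF/LEF factor of Wnt signalling (18.3), sup-37 (17.9), the chitin synthase gene chs-1 (16.8), the SWI/SNF subunit gene let-526 (16.2), the giant muscle kinase gene unc-22 (16.2) and the pharyngeal myosin gene myo-1 (16.2). In pop-1 the replicate 1 region ranked 29754 with a signal of 4.87. sup-37, chs-1, let-526, unc-22 and myo-1 had no region in replicate 1. The region in Y43F8B.2 differed from these: it ranked 162 in replicate 2 and 45 in replicate 1, and the pooled candidate it met, ranked 39, had its summit in an intron and is not counted here.

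The 6242 candidates lay in 4656 of the 18048 protein-coding genes that have eligible coding bases (25.8%), meaning bases at which a summit would satisfy the rule. A single candidate was held by 3608 genes, 744 held 2 and 304 held 3 or more. Eligible bases came to 19.2 Mb, so the density was 3.25 candidates per 10 kb. The share of genes with a candidate rose with length: of genes with at most 500 eligible bases 7.97% held a candidate, of those with 1000 to 2000 bases 36.6%, and of the 44 with over 10000 bases 97.7% (43). Density varied less, from 3.00 to 3.69 per 10 kb over the 6 length bins. A candidate with regions in both replicates was held by 1642 genes (9.1% of the 18048).

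The genes with the most candidates were among the longest in the genome. The titin gene ttn-1 held 16 (2.91 per 10 kb), pks-1 held 11 (4.82), the spectraplakin gene vab-10 held 10 (4.30), and cla-1, which encodes the active zone protein clarinet, held 10 (3.78). Next came unc-80, a subunit gene of the NALCN channel complex (9 candidates, 9.28 per 10 kb), unc-44 (9, 4.19), the megalin-like receptor gene lrp-1 (8, 5.65), the muscle copine gene cpna-2 (8, 3.54), the MLL-type histone methyltransferase gene set-16 (7, 9.78) and the HECT ubiquitin ligase gene hecd-1 (7, 9.20). The median signal in these 10 genes lay between 9.4 and 12.3, near that of all coding exon candidates. In ttn-1 the largest signal was 20.2 and 5 of 16 candidates had regions in both replicates.

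Per length, the densest of the 247 genes with at least 5000 eligible bases were mtm-5, a myotubularin gene (6 candidates, 11.98 per 10 kb), and picd-1 (6, 10.48). The median over the 247 genes was 3.52. Neighbouring candidates can share a replicate region, as in hecd-1, where 2 candidates of exon 11 met the same replicate 2 region (11.5). Over all coding exon candidates, 372 (5.96%) overlapped another. The longest gene without a candidate was srap-1, with 10596 eligible bases, followed by Y55F3C.17 (9453) and F55H12.3 (8753).

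**Figure D4:**
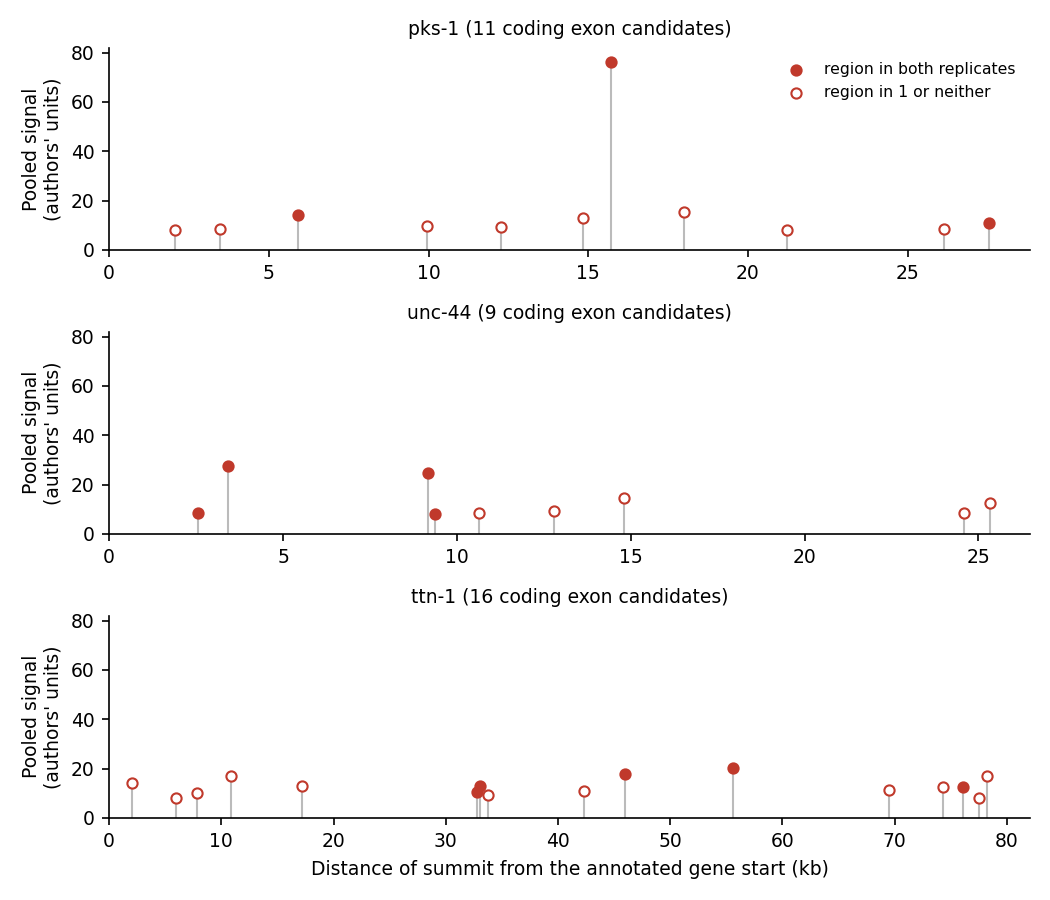
Pooled signal (authors' units) of each coding exon candidate in pks-1, unc-44 and ttn-1 against the distance of its summit from the annotated gene start (kb); filled points have a region in both replicates. In pks-1 1 candidate at 76.0 stands above 10 others of 8.0 to 15.3, while ttn-1 has 16 with none above 20.2.

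Of 26 gene lists, 24 had a coding exon candidate, 12 at a density above the overall 3.25 per 10 kb and 12 below. Densities ran from 1.53 per 10 kb, on the 4 candidates of vitellogenins, to 5.47, on the 33 of chaperones. Median signals ran from 9.52, over the 100 candidates of F-box, MATH and BTB genes, to 12.17, over only 2 in ribosomal protein genes. A member in the thresholded list occurred in 1 of the lists, through pks-1. The chaperone list, which also holds the transcription factor gene hsf-1, had 33 candidates in 25 of 60 genes (5.47 per 10 kb). Of the 33, 6 (18.2%, beside 30.9% of all coding exon candidates) had regions in both replicates. The largest signals of the list were in dnj-25, an auxilin-like J-domain gene (24.7, with 11.2 and 14.1 in replicates 1 and 2), and hsp-90 (18.7, with 8.57 and 9.83). Next came hsf-1, the heat shock factor gene (18, with no region in replicate 1 and 9.73 in replicate 2). The dnj-25 summit lay 33 bp from an internal transcript start of the same gene.

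Ubiquitin and proteasome genes had 44 candidates (4.60 per 10 kb). The proteasome ATPase gene rpt-1 held 20.6, with 8.69 in replicate 1 (rank 7397) and 5.23 in replicate 2 (rank 18179). The cullin gene cul-2 held 20.4, with 6.87 in replicate 1 (rank 14787) and 14.7 in replicate 2 (rank 354). Translation factors and tRNA synthetases had 42 in 31 of 76 genes (4.39), led by eef-2. Cell cycle, spindle and replication genes had 55 (4.03). Chromatin regulators had 105 in 59 of 113 genes (4.04), and 34.3% of these had regions in both replicates, near the 30.9% of all coding exon candidates. The zinc-finger gene lin-13, of the synMuv B class, held 24.4, with 16.4 in replicate 1 and 5.13 in replicate 2. The CBP/p300 acetyltransferase gene cbp-1 held 22.7 and 22.6 at 2 sites, and hcf-1, the host cell factor gene, held 21 and 17.9 at 2 sites of exon 4, both on the same replicate regions (14 and 11.9).

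Nuclear hormone receptor genes, the family of NHR-12 itself, had 80 candidates in 69 of 273 genes (3.04 per 10 kb). None had a −log10 q value of 2 or more, a value held by 4 of the 6242 coding exon candidates (0.0641%). Their median signal was 10.27, and 28 (35%, beside 30.9% of all coding exon candidates) had regions in both replicates. The largest was in nhr-91, exon 7 of 9, at 25 (13.8 in replicate 1 and 10.7 in replicate 2). Next came nhr-10 at 17.9, with 14.1 in replicate 1 alone, and nhr-49, a regulator of fat metabolism, at 17.7 (11.9 and 7.87). In nhr-12 itself, on chromosome V, no candidate of any kind lay in the gene body or within 1000 bp of it. At unc-119, the gene mutated in the strain, 4 candidates lay in that span and none was in a coding exon; the largest, in an intron, had a signal of 19.3.

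Homeobox, T-box, GATA and forkhead genes had 35 candidates (3.37 per 10 kb), with the caudal homologue pal-1 at 18 and tbx-2 at 17.5. Polyketide and fatty acid synthase genes had 18 (3.84), and nrps-1 held 22.7, with 13.8 in replicate 1 and 5.54 in replicate 2 (rank 16084). Cuticle collagens had 40 candidates in 38 of 174 genes (3.65), 16 of them (40%, beside 30.9% of all coding exon candidates) with regions in both replicates. Their summits had a median GC content of 55.5%, and after dpy-17 the next signal was that of sqt-3 at 23.7. It had 11.8 in replicate 1 and 5.39 in replicate 2 (rank 17095). The sqt-3 summit lay 357 bp from a transcript start of the same gene. Ion channel and synapse genes had a density of 3.01.

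Lists below the overall density included giant muscle and matrix proteins with 91 candidates (2.73 per 10 kb), C-type lectins with 49 (2.74), cytochrome P450s and glucuronosyltransferases with 43 (2.60) and chemoreceptors with 211 in 202 of 1303 genes (2.48). Actin, tubulin and muscle myosin genes had 17 (2.49), germline granule and small RNA pathway genes 41 (2.53), and vitellogenins, the yolk protein genes, 4 (1.53). Ribosomal protein genes had 2 candidates, in rpl-25.1 and rpl-3, on 10.3 kb of eligible bases. Core histone genes had none, on 0.563 kb in 5 genes, too little to show a difference. GC content differed between the lists too, from a median of 36.3% at the chemoreceptor summits to 44.8% at the chaperone and 55.5% at the collagen summits, and its part in the densities was not tested.

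The 100 bp on each side of the summit had a median GC content of 40.8% (quartiles 36.9 and 44.8) in coding exons, beside 39.8% over all eligible coding bases, 37.8% over all candidates and 36.8% in introns. Density rose with GC content in each of 6 bins, from 242 candidates per Mb of eligible bases below 35% GC to 300, 354, 390, 429 and 485 per Mb at 55% or more. Replicate 2 support rose with it, from 55% to 67.9% of the coding exon candidates, while replicate 1 support stayed between 62.2% and 65%. Over all candidates both rose, from 62.6% to 73.3% in replicate 1 and from 53.8% to 73.3% in replicate 2. Signal itself hardly followed GC content (Spearman's rho 0.0631 over the 6242).

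**Figure D5:**
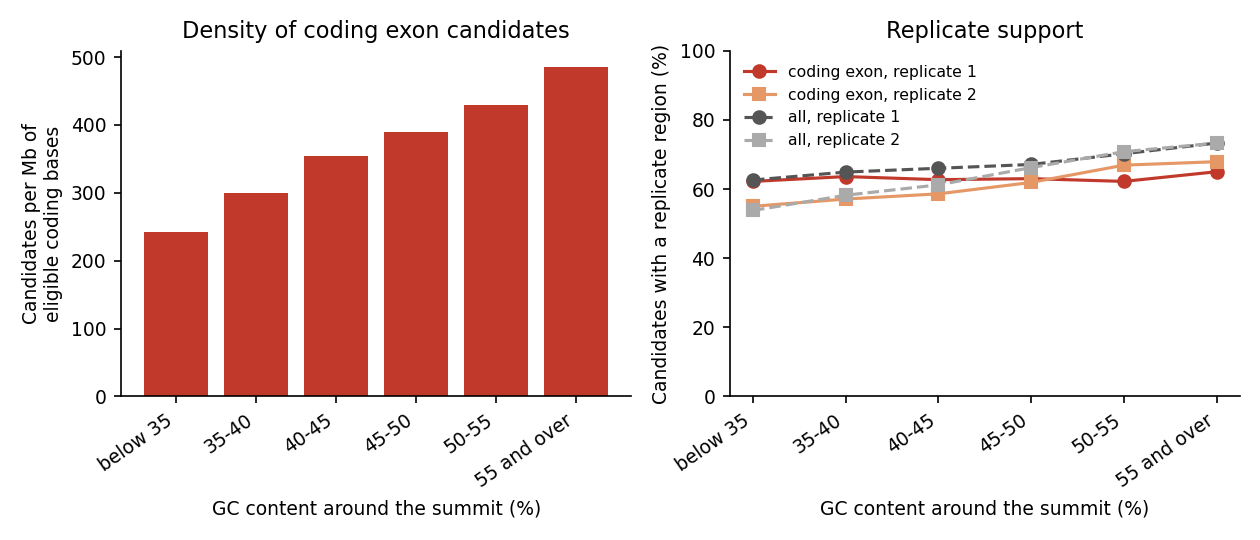
Left, number of coding exon candidates per Mb of eligible coding bases by GC content (percent) of the 100 bp on each side of the summit; right, percent of candidates with a region in each replicate. Bars rise from 242 to 485 per Mb, and the replicate 2 line of the coding exon candidates rises from 55% to 67.9% while its replicate 1 line stays between 62.2% and 65%.

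Within genes the candidates were spread much as the eligible bases were. Exons holding a summit had a median length of 292 bp, beside 275 bp over eligible bases, and summits lay a median of 67 bp from an exon edge, beside 61 bp. Exons here are coding pieces merged over all transcripts of a gene. Internal exons held 5173 (82.9%, beside 82.6% of eligible bases), last exons 964 (15.4%, beside 15.8%) and the initial exon 92. Along the coding sequence, cut into 10 equal parts, the share of candidates in each part differed from that of eligible bases by less than 1 percentage point. Signal did not follow the distance from the nearest coding gene start (rho 0.00313) or exon length (rho 0.0327).

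The 500 bp limit cut through values of ordinary size. Just inside it, at 501 bp, M28.8 held 9.29 and Y38E10A.3 held 7.80. Just outside, F49E10.2 held 15.7 at 499 bp and bus-8B held 9.96 at 498 bp. Alternative transcript starts lie inside the set, since the rule counts gene starts: 511 summits (8.19%, beside 7.18% of eligible bases) were within 500 bp of one, with a median of 10.55 and a largest signal of 24.7, in dnj-25.

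Density by chromosome ran from 265 candidates per Mb of eligible bases on V to 361 on III, and was 338 on X, 325 overall. Of the 6242 regions, 5724 (91.7%, beside 84.8% of all candidates) held no 31-base word that occurs more than once in the genome. In 8 (0.128%, beside 0.448% of all candidates) such words made up 50% or more. An annotated gene of a class other than protein-coding covered 28 summits, an antisense RNA in 14 of them. Summits inside the introns or untranslated parts of a further protein-coding gene were not counted.

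Short words were counted on both strands of windows reaching 100 bp to each side of the summit, overlapping matches of different words included. AGGTCA, the hexamer that many nuclear receptors bind, was in 4.77% of the coding exon windows, 4.18% of windows spaced every 500 eligible coding bases and 5.70% of all candidates. GAGAGA was in 10.4%, beside 10% of the spaced coding windows, 14.5% of all candidates and 39.4% of the 292 that overlap a thresholded peak. GCGCGC was in 0.304%, beside 0.390%, 2.21% and 14.7%. AGTTCA, also counted as a nuclear receptor hexamer, was in 13.6%, beside 14.7% of the spaced coding windows. CTGCGTCT was in 0.465%, beside 0.346%, and TATAAA in 11.8%, beside 13.3%. The coding exon windows thus held these words about as often as coding sequence did. In the coding exon windows of the 100 largest signals, AGGTCA was in 7%, AGTTCA in 13%, GAGAGA in 9% and TATAAA in 18%. With 100 windows, these shares rest on few regions. Of the 292 candidates that overlap a thresholded peak, 5.48% held AGGTCA and 5.48% held AGTTCA. Not all of the 10 words counted are given here. The sequence printed for pks-1 holds GAGAGA on the minus strand, inside the intron, the dpy-17 window holds it on the plus strand, and the unc-44 window holds CACGTG directly before its capitals, a word in 5.46% of the coding exon windows and 4.81% of the spaced ones.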

How the data were processed

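ChIP-seq regions of 2 biological replicates of 1 group were used on ce11 (the assembly WBcel235). The deposited description files say that the authors called candidates on each replicate and on the pooled replicates against a control, and compared the lists by IDR to give 249 thresholded peaks. No aligner, caller, version or IDR cut-off is given in the sources used here. Signal and −log10 q values are as deposited by the authors, and the deposited summit offset is the distance in bp from a region's start.

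Summits were placed on Ensembl release 115 genes, and sequence came from the RefSeq copy of WBcel235. Overlap means at least 1 bp; where several replicate regions met a candidate, the one with the largest signal was taken. GC content covered 100 bp each side of the summit. Repeats were exact 31-base words on either strand. Eligible coding bases are the bases that satisfy the rule. Exon numbers and lengths refer to coding pieces, with overlapping pieces of all transcripts of a gene merged. Exons without coding bases were not numbered, so these numbers can differ from those of a single transcript.

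The members, 26 gene lists and 10 words were chosen with earlier results of these data known. Genes were listed for naming by overlap with a thresholded peak, the 15 largest signals and the 10 best by the worse replicate rank. Also listed were the 10 genes with most candidates, up to 3 by signal of each gene list, nhr-12 and unc-119. The 2 summits on each side of the 500 bp limit were added. Not every listed gene is named in the text. Other genes, the best regions of each replicate, the densest genes and the longest without a candidate were chosen after their values were seen. No test was made across regions. Nothing says what was separate about the replicates, so agreement between them may be technical. Depth is unknown, so no interval is given for a signal. The code recovered known answers on simulated regions. Python 3.11.15, numpy 2.4.6, pandas 2.3.3, scipy 1.17.1 and matplotlib 3.10.9 were used.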

Additional observations from a re-analysis of the deposited data

How the results depend on the processing

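Of 56 values under other settings, 37 were labelled as the same and 19 as moved. For counts, the same meant within 1.5 times the main count. For medians and the share in both replicates, it meant within a binomial interval that treats regions as independent. Regions of the same 2 libraries are not replicates, so these labels only sort changes by size and are not tests. Requiring coding sequence for 50 bp on both sides of the summit left 3783 candidates in 2964 genes, with a median signal of 10.5, a median GC content of 42.8% and 0 overlapping a thresholded peak. Keeping only −log10 q values of at least 2 left 4 candidates in 4 genes, with a median signal of 31.6, a GC content of 49% and 100% in both replicates. Thresholded peaks met 4 candidates with no distance from small RNA genes and 1 with the stricter part of the list. The share in both replicates was 22.3% when the overlap had to cover 50% of the region (23.6% over all candidates) and 14.1% with summits within 100 bp (15.4% over all). Median GC content was 41.3% beyond 1000 bp from starts, 41.6% with 50 bp each side and 39.6% over whole regions.

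With 1 replicate list in place of the pooled list, the number ran from 6491 to 6934 regions, the genes from 4877 to 5051, the overlaps with a thresholded peak from 3 to 5 and the GC content from 40.3% to 40.8%. Signal scales differ between lists, and the share in both replicates needs both, so neither was computed there. No paired analysis was possible because there is 1 group. The causes of these changes were not tested. Unknown depth limits every signal value.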
